A study of Mus musculus with 12 samples.

Results

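The 10 genes described here belong to the response to low oxygen and to glycolysis. They are the HIF subunit gene Hif1a, the oxygen sensor gene Egln3, the hypoxia-induced genes Vegfa, Adm and Bnip3, and the glucose transporter and glycolysis genes Slc2a1, Hk2, Gapdh, Pgk1 and Ldha. They were chosen by name, out of 21631 genes that RefSeq annotates as protein-coding on GRCm38. For each gene, every ATAC-seq peak that overlapped the gene body or 10 kb on either side (its locus) was taken. The loci held 33 to 45 peaks in a library. Merged over the 12 libraries wherever they overlapped by at least 1 bp, these peaks made 48 of the 83727 regions of the series.

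The assay was Omni-ATAC-seq. Its enzyme, the transposase Tn5, cuts the open DNA of isolated nuclei, so that a peak marks accessible chromatin. The cells were AT2 cells (alveolar type II), which make surfactant and renew the epithelium of the lung alveolus, and 50000 were sorted by flow cytometry for a library. They came from BALB/c mice, 6 to 8 weeks old, 7 days after 800000 tumour cells were injected into the tail vein. The 4 groups were AT2 cells of the CT26 niche, CT26 distal lung, the 4T1 niche and 4T1 distal lung, with 3 independent samples each and 5 lungs pooled in each sample. CT26 is a colon carcinoma line and 4T1 a mammary carcinoma line, both of BALB/c origin, and the labels call the injected cells labeling-CT26 and labeling-4T1. All 4 groups carried injected tumour cells, the distal groups included, and no tumour-free lung was analysed here. The marker or gate that told niche from distal cells in the sort, and whether both came from the same lungs, could not be read from the labels. The study asked how the chromatin of AT2 cells differs near metastases of either tumour line.

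When oxygen is plentiful, prolyl hydroxylases such as Egln3 modify the alpha subunits of hypoxia-inducible factor (HIF), which are then degraded. When oxygen falls, HIF-1 alpha persists, pairs with its partner ARNT, binds short DNA motifs with the core ACGTG or GCGTG near its target genes and raises their transcription. The targets include genes for glucose uptake, for the enzymes of glycolysis and for the growth of blood vessels. AT2 cells line an oxygen-rich air space and are known as a source of VEGF in the lung.

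The libraries differed in how much of the genome their peak lists covered, and this bears on every length given here. The lists held 51005 to 55529 peaks in CT26 niche libraries, 42067 to 50093 in CT26 distal, 63722 to 66911 in 4T1 niche and 56330 to 58237 in 4T1 distal. They covered 38.2 to 44.7 Mb in CT26 niche, 31.4 to 34.4 Mb in CT26 distal, 49.1 to 51.9 Mb in 4T1 niche and 42.0 to 45.7 Mb in 4T1 distal libraries. The labels give 30000000 reads as the number intended for each sample. The depth reached is unknown, because a peak list carries no counts of reads. Lengths are therefore given as deposited and also scaled, which means multiplied so that every library covers the mean total of 42.2 Mb. Scaling moved the median log2 change of the 16823 tested loci to -0.04 for niche minus distal over both models, against 0.15 without scaling, and to 0.08 for CT26 minus 4T1, against -0.21 without scaling. All 10 AT2 markers examined, Sftpc and Abca3 among them, had peaks in all 12 libraries. So did all 5 markers of AT1 cells (alveolar type I), so the presence of these peaks did not tell AT2 from AT1 cells. Of 4 airway markers, 3 had peaks in all 12 libraries and the basal cell gene Krt5 had none in any. Of 4 mammary markers, Elf5, which is also known from lung epithelium, had peaks in all 12 libraries. Krt14 had a peak of 439 bp in 4T1 niche replicate 3 and in no other library. Krt5 and the milk protein gene Csn3 had none in any. All 4 colon markers had peaks in all 12 libraries, and summed to 4.7 to 8.2 kb in CT26 niche, 4.0 to 5.8 kb in CT26 distal, 6.9 to 8.3 kb in 4T1 niche and 5.6 to 8.0 kb in 4T1 distal libraries. The 5 endothelial marker loci summed to 6.6 to 9.2 kb in CT26 niche libraries, 6.3 to 7.0 kb in CT26 distal, 11.1 to 14.1 kb in 4T1 niche and 7.9 to 8.6 kb in 4T1 distal, not scaled. The 6 leukocyte loci summed to 6.0 to 10.7 kb in the CT26 niche, 5.6 to 7.5 kb in CT26 distal, 12.7 to 14.3 kb in the 4T1 niche and 13.1 to 14.9 kb in 4T1 distal libraries. The 5 fibroblast loci summed to 6.4 to 10.6 kb in the CT26 niche, 3.9 to 5.2 kb in CT26 distal, 8.5 to 10 kb in the 4T1 niche and 5.1 to 8.2 kb in 4T1 distal libraries. The leukocyte gene Ptprc had a peak in 2 CT26 niche libraries and in no other library. The part of other cells in the results given here was not tested. In libraries of many cells, a smaller share of cells with an open site and less opening in each cell cannot be told apart.

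The sequence just before the start of these genes is shown for 6 members. The start regions of Egln3, Slc2a1, Gapdh and Ldha were called between niche and distal cells after scaling, and the start peaks of Adm and Pgk1 varied most between libraries. The windows are the 250 bases upstream of the RefSeq start in build GRCm38.p6, read 5′ to 3′ on the strand of the gene. Capitals mark the letters ACGTG or GCGTG on either strand, which read CACGT or CACGC where they lie on the other strand. Overlapping matches, as in the palindrome CACGTG, were counted as 1 run. The Egln3 window is chr12:54203875-54204124 (minus strand), the Slc2a1 window chr4:119108495-119108744 (plus strand), the Adm window chr7:110627407-110627656 (plus strand), the Ldha window chr7:46845554-46845803 (plus strand), the Pgk1 window chrX:106186850-106187099 (plus strand) and the Gapdh window chr6:125165774-125166023 (minus strand).
Egln3: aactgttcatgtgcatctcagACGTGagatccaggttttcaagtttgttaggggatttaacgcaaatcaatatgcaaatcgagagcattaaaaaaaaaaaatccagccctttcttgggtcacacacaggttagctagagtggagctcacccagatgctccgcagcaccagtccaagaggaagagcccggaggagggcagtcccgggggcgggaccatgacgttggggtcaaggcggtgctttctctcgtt
Slc2a1: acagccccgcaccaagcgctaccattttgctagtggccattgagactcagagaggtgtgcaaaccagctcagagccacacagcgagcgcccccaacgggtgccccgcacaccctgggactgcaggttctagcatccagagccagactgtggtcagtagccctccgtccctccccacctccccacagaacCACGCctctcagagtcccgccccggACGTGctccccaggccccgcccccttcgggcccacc
Adm: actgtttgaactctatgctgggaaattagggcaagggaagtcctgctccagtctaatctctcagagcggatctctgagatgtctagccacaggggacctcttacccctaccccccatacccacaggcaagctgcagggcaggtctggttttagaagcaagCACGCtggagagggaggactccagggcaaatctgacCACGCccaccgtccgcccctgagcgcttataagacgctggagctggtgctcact
Ldha: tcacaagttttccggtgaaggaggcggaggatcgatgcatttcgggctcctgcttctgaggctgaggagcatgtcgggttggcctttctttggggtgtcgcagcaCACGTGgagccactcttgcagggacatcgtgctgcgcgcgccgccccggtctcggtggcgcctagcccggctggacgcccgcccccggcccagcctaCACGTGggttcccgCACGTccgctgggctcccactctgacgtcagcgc
Pgk1: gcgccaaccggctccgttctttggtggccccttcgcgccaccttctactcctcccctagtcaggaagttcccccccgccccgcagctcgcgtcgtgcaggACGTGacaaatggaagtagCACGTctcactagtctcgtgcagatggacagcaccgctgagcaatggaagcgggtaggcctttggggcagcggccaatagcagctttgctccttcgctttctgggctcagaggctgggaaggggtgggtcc
Gapdh: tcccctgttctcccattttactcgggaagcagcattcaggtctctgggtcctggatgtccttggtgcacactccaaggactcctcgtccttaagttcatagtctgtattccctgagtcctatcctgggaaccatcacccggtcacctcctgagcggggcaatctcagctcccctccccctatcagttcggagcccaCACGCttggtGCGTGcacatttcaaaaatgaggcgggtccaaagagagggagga
The Ldha window held 3 runs, with matches whose first bases lay 145, 144, 48, 47 and 34 bp before the start. The Slc2a1 window had them at 61 and 36 bp, the Adm window at 90 and 54 bp, the Pgk1 window at 150 and 131 bp, the Gapdh window at 54 and 44 bp, and the Egln3 window held a single match at 229 bp. All 10 genes had a match in at least 1 of their 12 RefSeq windows, and 11 of the 12 windows held one. Such letters are common: 44.4% of the 21045 windows of protein-coding genes held at least 1 run and 17.1% held 2 or more, as did 9 of the 12 windows of these genes. A match is a description of the letters and not evidence of binding. Peaks covered the whole Ldha, Pgk1 and Gapdh windows in all 12 libraries. The Egln3 window was covered over 92 to 250 bp, and in full in 4 libraries. The Slc2a1 window was covered over 179 to 250 bp and in full in 3 libraries, and the Adm window over 0 to 250 bp and in full in 2 libraries.

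Accessible chromatin at the start was a constant feature of 9 of the 10 genes and a variable one of Adm. A region lay over a RefSeq start of every member, and at every member except Adm all 12 libraries had a peak there. A second, downstream Vegfa start lay under no region. How many of all protein-coding genes had a start peak in all 12 libraries was not counted. The Slc2a1, Hif1a and Bnip3 start peaks stood high within the lists. By the authors' deposited -log10 p, Slc2a1 ranked at percentiles 92.6 to 96.8 of its own library's peaks, Hif1a at 91.4 to 96.5 and Bnip3 at 88.7 to 98.1. The Adm start peak ranked at percentiles 3.6 to 30.9 and the Egln3 start peak at 28.8 to 68.5. Ranks from lists of different length show no change between groups and serve here as a description only. The length of the start peak was nearly the same in every library for 7 genes, Hif1a, Vegfa, Bnip3, Slc2a1, Hk2, Gapdh and Ldha. Its coefficient of variation over the 12 libraries was 3.7% to 9.2% not scaled, and 14.1% to 14.9% after scaling to total covered length. Of all 9392 regions over a protein-coding start that were held by all 12 libraries, the median ratio of the longest to the shortest library was 1.46. For Gapdh that ratio was 1.13, and 5.9% of those start regions had a ratio as low or lower. For Bnip3, the least constant of the 7, it was 1.38, and 41.4% had a ratio as low or lower.

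The Egln3 start region varied more, from 603 to 1023 bp, with a ratio of 1.70 and a coefficient of variation of 14.8%, not scaled. That of Pgk1, the ATP-yielding phosphoglycerate kinase, varied most of the 9, with a ratio of 2.24 and a coefficient of variation of 28.8%, not scaled. It was the only region in the Pgk1 locus. It spanned 1713, 1670 and 879 bp in CT26 niche libraries, against 784, 871 and 766 bp in CT26 distal libraries, and 1007, 1361 and 1414 bp in 4T1 niche libraries, against 1083, 1135 and 980 bp in 4T1 distal libraries. CT26 niche replicates 1 and 2 were the longest and CT26 niche replicate 3 lay near its distal libraries. Not scaled, the niche lay above distal lung within CT26, as at 33.5% of all loci, and the groups overlapped within 4T1. Scaled, they overlapped in CT26 too, at 1617, 1842 and 966 bp in the niche against 979, 1172 and 938 bp in distal lung.

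At Adm, which encodes the vasodilator peptide adrenomedullin, a start peak was called in 3 of 3 CT26 niche libraries against 1 of 3 CT26 distal libraries, and in 3 of 3 4T1 niche libraries against 2 of 3 4T1 distal libraries. Its lengths were 744, 512 and 375 bp in the CT26 niche, against 611 bp in CT26 distal replicate 1 and no peak in the other two. In 4T1 they were 687, 576 and 625 bp in the niche, against 421 and 349 bp in distal replicates 2 and 3 and no peak in replicate 1. The 3 libraries with no start peak were all distal. None of the Adm start peaks had a deposited -log10 q of 5 or more. The change over both models was 1.40 ± 0.59 on the log2 scale of scaled bp + 100 (SE), with a limma adjusted p of 0.159, so the difference did not pass the threshold. The groups overlapped in CT26, where distal replicate 1 was longer than niche replicates 2 and 3, and did not overlap in 4T1. Of all whole loci, 27.5% lay higher in the 4T1 niche with no overlap when not scaled, and 8.08% when scaled. That share was not counted over single regions.

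**Figure D1:**
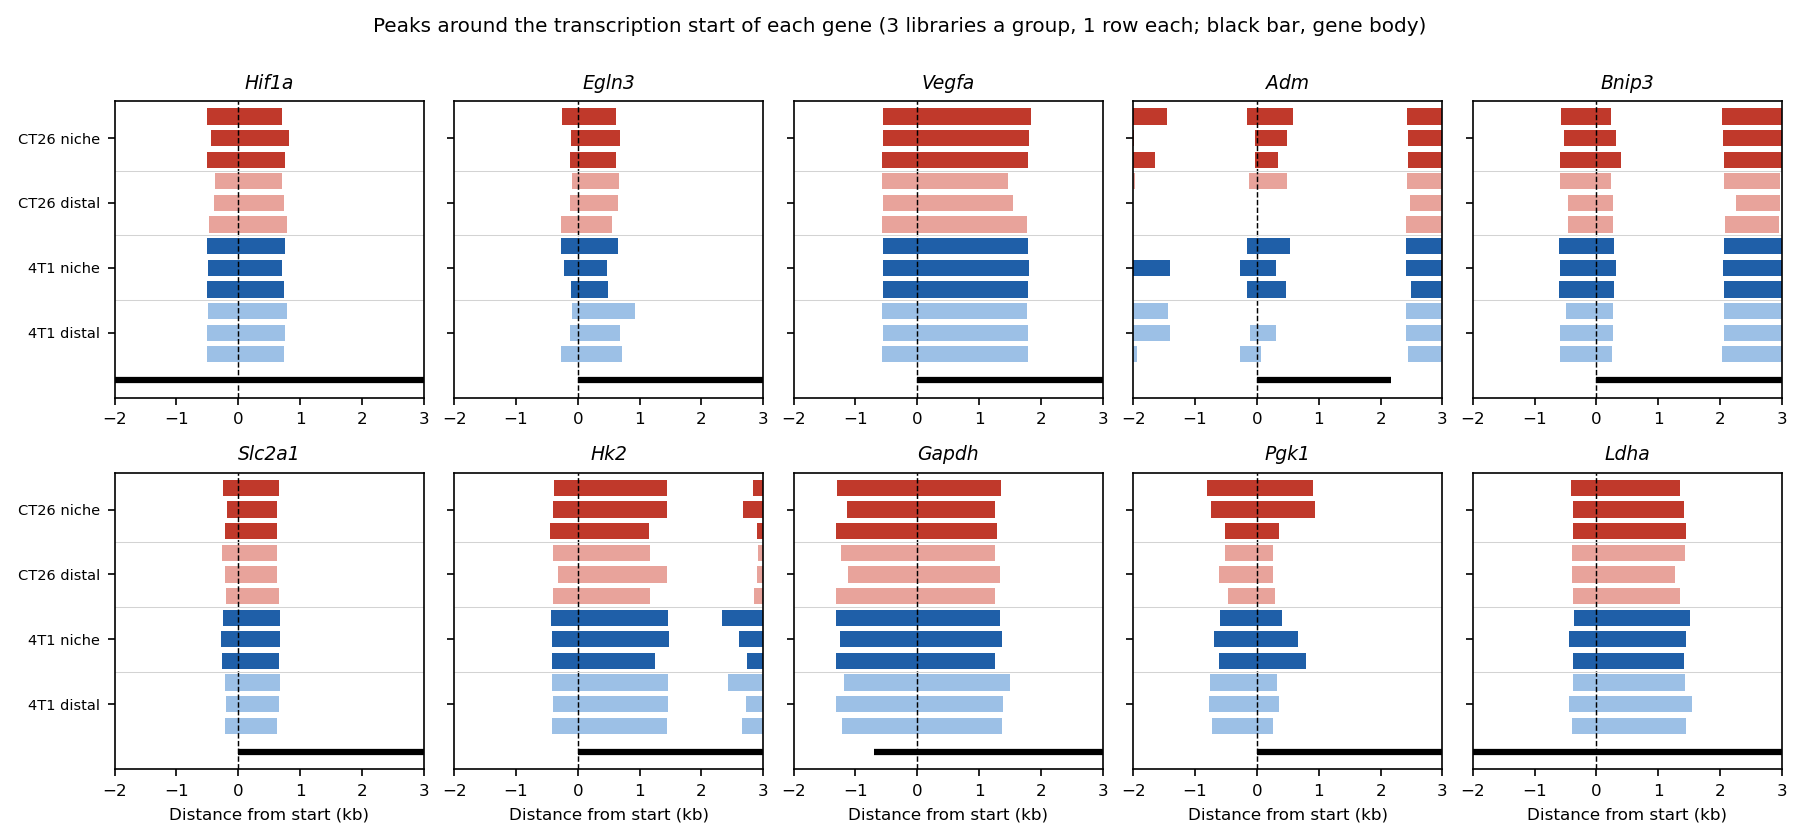
Deposited peaks around the transcription start of each gene, 1 row a library in the order CT26 niche, CT26 distal, 4T1 niche and 4T1 distal, against the distance from the start in kb. The black bar is the gene body, which for Hif1a, Gapdh and Ldha begins upstream of the RefSeq start placed at 0. Start peaks are nearly constant in length at most genes, vary from 766 to 1713 bp at Pgk1, and are missing in 3 distal libraries at Adm.

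Compared over whole loci and scaled, the hypoxia and glycolysis genes did not share a direction between niche and distal AT2 cells. Differences in locus length were tested on log2(scaled bp + 500) with limma over all 16823 loci that had a peak in at least 3 libraries, and a locus was called at a Benjamini-Hochberg adjusted p under 0.05. All 10 members were tested. For niche minus distal over both models, 2 of the 10 were called, Egln3 and Gapdh, both lower in the niche. Of all loci, 2.38% were called in this comparison, 1.5% higher and 0.886% lower. The members' log2 changes ran from -0.27 to 0.18 with a median of -0.06, 3 of them above 0, beside a median of -0.04 over all loci, of which 40.5% were above 0. Within CT26 no member was called by limma, where 0.672% of loci were called. An unadjusted p under 0.05 was reached there by 3 members, beside 3194 of the 16823 loci. Within 4T1 no member was called, where 0.624% of loci were called. An unadjusted p under 0.05 was reached there by 2 members, beside 2254 of the 16823 loci. The niche effect did not differ detectably between the models at any member: none was called, where 0.0594% of loci were called. None had an unadjusted p under 0.05, beside 1482 of the 16823 loci.

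Both the count and the directions depend on the scaling. Without scaling, 8 of the 10 members were above 0 over both models, beside 92.0% of all loci, and 10 of 10 within CT26, beside 88.1% of all loci. Without scaling, Slc2a1 alone was called for niche minus distal over both models, and it was higher in the niche, where 23.7% of loci were called and 23.5% were called higher. Of the calls over all loci, 99.4% were higher without scaling and 62.8% with it. Scaled to the regions that all 12 libraries held, no member was called, where 5.11% of loci were called. An unadjusted p under 0.05 was then reached by 4 members, beside 3661 of the 16823 loci. Within CT26, 77.9% of the calls over all loci were higher with scaling and 99.2% without. Scaling moves the log2 changes of most loci by a similar amount, and setting a change against the median of all loci takes that shift out. The members' changes relative to that median were therefore bound to be close under both scales. They are a description and no support for the calls. For Egln3 the change relative to that median was -0.23 scaled and -0.23 not scaled. For Gapdh it was -0.17 scaled and -0.16 not scaled, and for Slc2a1 0.14 scaled and 0.16 not scaled.

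**Figure D2:**
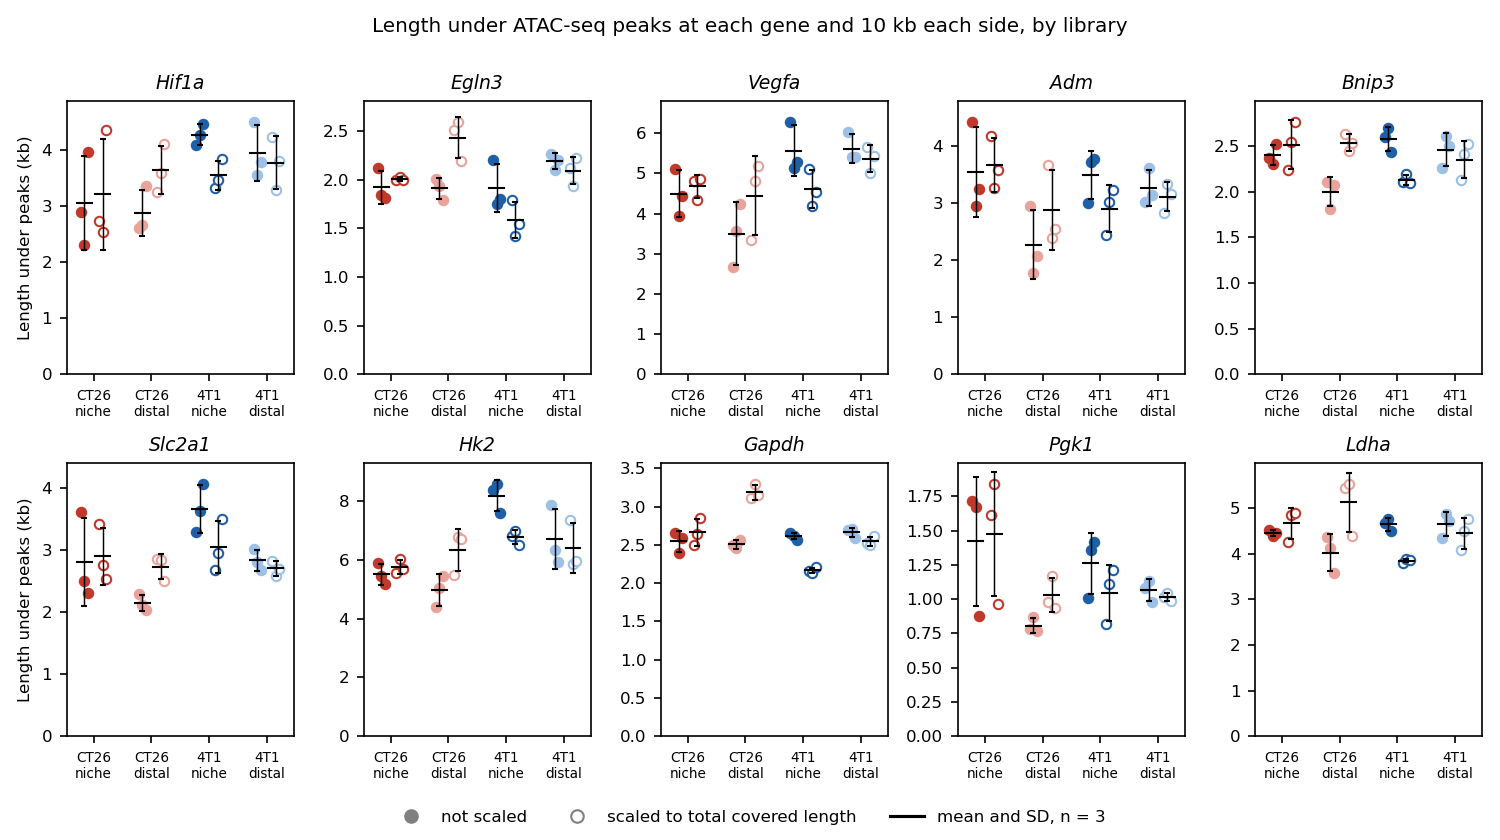
Length under peaks in kb at each gene with 10 kb on each side, by library. Filled points are not scaled, open points are scaled to total covered length, and bars give the mean and SD (n = 3). Egln3 and Gapdh are lower in niche than in distal libraries of both models in the open points and overlap in at least 1 model in the filled ones, and Slc2a1 is higher in niche libraries of both models when not scaled.

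**Figure D3:**
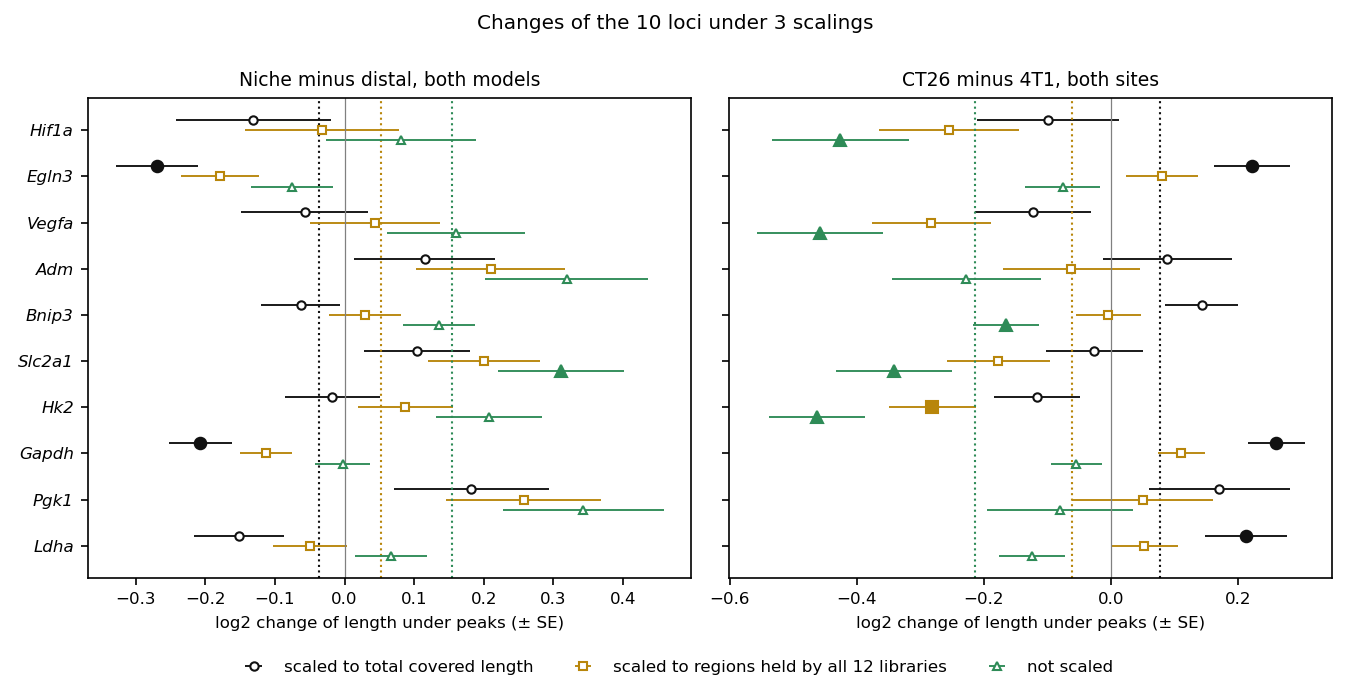
Log2 change of locus length with its SE for each gene under 3 scalings, for niche minus distal and for CT26 minus 4T1. Filled markers have a limma adjusted p under 0.05, and dotted lines mark the median of all 16823 loci under the scaling of the same colour. The members lie on both sides of those medians, and which of them are called differs between the scalings.

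The oxygen sensor gene Egln3 was lower in niche cells after scaling. Its locus held 2 regions, over the start (chr12:54202950-54204152) and 12.1 kb into the gene (chr12:54191149-54192472), and all 12 libraries held both. The scaled lengths were 2003, 2030 and 1997 bp in CT26 niche libraries, against 2512, 2601 and 2194 bp in CT26 distal libraries. They were 1793, 1426 and 1548 bp in 4T1 niche libraries, against 2123, 1941 and 2220 bp in 4T1 distal libraries. Every niche library lay below every distal library of its model, which was also so, in that direction, for 5.97% of all loci. The log2 change over both models was -0.27 ± 0.06 (limma, adjusted p = 0.0414). The lengths as deposited averaged 1.93 ± 0.17 kb in the CT26 niche and 1.91 ± 0.11 kb in CT26 distal lung (SD, n = 3 each). In the 4T1 niche they averaged 1.92 ± 0.25 kb, and in 4T1 distal lung 2.19 ± 0.08 kb (SD, n = 3 each). Without scaling the change was -0.08 (adjusted p = 0.337). The call was also lost when any of 10 of the 12 libraries was left out. With only the peaks of a deposited -log10 q of at least 5, the start peak was missing in all 3 CT26 distal libraries and present in the other 9. The locus change then turned to 0.019 (adjusted p = 0.900), and the change of the start region also turned to a positive value.

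Hif1a, the gene of the oxygen-regulated subunit of HIF-1, did not differ detectably between niche and distal cells in locus length. The locus held 2895, 2302 and 3950 bp in CT26 niche libraries against 2601, 2659 and 3345 bp in CT26 distal libraries, not scaled. It held 4085, 4253 and 4459 bp in 4T1 niche libraries against 4499, 3550 and 3778 bp in 4T1 distal libraries. The site groups overlapped in both models, and the log2 change over both was -0.13 ± 0.11 (scaled, limma, adjusted p = 0.485). Between the tumour models, 3 of its 7 regions were called by limma after scaling, where 25.0% of all regions tested were called. The start region (chr12:73907355-73908690) was higher in CT26 with scaling, at 0.29 ± 0.06 (limma, adjusted p = 0.00576), and not without it, at -0.05 (adjusted p = 0.358). The next (chr12:73954921-73955393) lay 47.3 kb after the start, beyond the gene's end. No CT26 library had a peak there, while the 4T1 niche libraries held none, 386 and 430 bp and the 4T1 distal libraries 355, 187 and 405 bp. The region entered the test only through the 4T1 libraries that held it, so its call by limma adds nothing to this presence and absence, and no fold or p is given. The last (chr12:73930483-73931555), within the gene and 23.2 kb after the start, held 590 bp in CT26 niche replicate 3, 475 bp in CT26 distal replicate 3 and no peak in the other 4 CT26 libraries. All 6 4T1 libraries had it, with 1070, 1009 and 595 bp in the niche and 589, 1065 and 467 bp in distal lung. Since fewer than 3 CT26 libraries held it, this region too passed the filter only through 4T1 libraries. Its call by limma adds nothing to these lengths, and no fold or p is given. That call was also lost with scaling to the shared regions and without any of 10 of the 12 libraries. Both regions ranked low, at percentiles of 3.1 to 13.2 and 7.3 to 30.9 of their lists.

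Among the secreted factors, Vegfa, the main growth factor of blood vessels, was not called between niche and distal cells under any of the 3 scalings. Its locus held 5106, 3938 and 4430 bp in CT26 niche libraries against 2671, 3575 and 4233 bp in CT26 distal libraries. It held 6291, 5133 and 5280 bp in 4T1 niche libraries against 6028, 5418 and 5403 bp in 4T1 distal libraries, all not scaled. The groups overlapped in both models. Scaled, the change over both models was -0.06 ± 0.09 (limma, adjusted p = 0.731), and not scaled it was 0.16 ± 0.10 (adjusted p = 0.235). Not scaled, every CT26 library lay below every 4T1 library, as at 7.41% of all loci. The CT26 minus 4T1 change was then -0.46 (limma, adjusted p = 0.00491), against -0.12 scaled (adjusted p = 0.354). The 250 bases before a second, downstream Vegfa start, which held matches at 218 and 211 bp, were covered by no peak in any library.

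For Adm, the whole locus held 4428, 2952 and 3250 bp in CT26 niche libraries against 2943, 1779 and 2073 bp in CT26 distal libraries. It held 3001, 3713 and 3765 bp in 4T1 niche libraries against 3015, 3611 and 3149 bp in 4T1 distal libraries, not scaled. The CT26 niche libraries all lay above the CT26 distal ones, as at 33.5% of all loci, while the 4T1 groups overlapped. The CT26 change was 0.32 ± 0.14 scaled (limma, adjusted p = 0.250) and 0.55 ± 0.17 not scaled (adjusted p = 0.0532). The difference of the niche effect between the models was 0.41 ± 0.20 (adjusted p = 0.616).

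Bnip3, a mitochondrial protein that triggers the removal of mitochondria, had 3 regions that all libraries held. Its locus held 2370, 2306 and 2518 bp in CT26 niche libraries against 2108, 1814 and 2072 bp in CT26 distal libraries, with no overlap. The same held at 33.5% of all loci. In 4T1 it held 2596, 2695 and 2431 bp in niche libraries against 2263, 2611 and 2504 bp in distal libraries, with overlap. These lengths are not scaled, and scaled they averaged 2.52 ± 0.27 kb in the CT26 niche and 2.54 ± 0.10 kb in CT26 distal lung (SD, n = 3 each). The scaled niche change over both models was -0.06 ± 0.06 (limma, adjusted p = 0.516).

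Slc2a1, which encodes the glucose transporter GLUT1, held a region that was found in 4T1 niche cells alone. The region chr4:119142343-119142706 lay 33.8 kb after the start and beyond the gene's end. It held 303, 364 and 323 bp in the 3 4T1 niche libraries, whereas the other 9 libraries, 4T1 distal and CT26, had none. It was the only one of the 48 regions held by every library of a site and no library of the other within a model. In 4T1, 2.59% of all regions were held by all niche libraries and no distal library, and in CT26 1.56%, where no region of these genes was among them. It was also the only region of the 48 called by limma within 4T1, where 2.77% of the regions tested were called. Since it entered the test only through the 3 4T1 niche libraries, it had to differ, and no fold or p is given. With only the peaks of a -log10 q of at least 5, fewer than 3 libraries held it and it could not be tested. Its peaks stood at percentiles 10.5, 33.1 and 42.4 of the 4T1 niche lists, with a deposited fold enrichment of 2.52, 3.16 and 3.75 over local background. The endothelial marker sums given above, not scaled, were also highest in the 4T1 niche libraries. Pecam1 alone kept apart there, at 6667, 4466 and 5284 bp against 2485, 2528 and 2657 bp in 4T1 distal libraries. The same held, in that direction and not scaled, at 27.5% of all loci. The other endothelial loci, Cldn5 and Kdr among them, overlapped between the 4T1 groups. The AT1, airway and colon sums also had their highest value in a 4T1 niche library, where the peak lists were longest. The part of any of these in the region at 33.8 kb was not tested.

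Over the whole Slc2a1 locus, peaks covered 3615, 2502 and 2301 bp in CT26 niche libraries against 2285, 2110 and 2039 bp in CT26 distal libraries, not scaled. They covered 3295, 3630 and 4068 bp in 4T1 niche libraries against 3015, 2799 and 2682 bp in 4T1 distal libraries. Every niche library lay above every distal library of its model, as at 11.0% of all loci. The change over both models was 0.31 ± 0.09 (limma, not scaled, adjusted p = 0.0335). Scaled, it was 0.10 ± 0.08 (adjusted p = 0.418) and the groups overlapped. Inside the gene, the region chr4:119121241-119121623 was held by 3 of 3 CT26 niche libraries against 1 of 3 CT26 distal libraries, and by 3 of 3 4T1 niche libraries against 2 of 3 4T1 distal libraries. Its peaks spanned 205 to 360 bp. It was picked after its values were seen, and the share of all regions with this pattern was not counted. The start region itself was the only region of the 10 genes called within CT26, where 2.44% of the regions tested were called. It was lower in the niche, at 902, 802 and 826 bp against 883, 831 and 858 bp in distal libraries before scaling, with a log2 change of -0.28 after scaling (limma, adjusted p = 0.0428). Those lengths overlap, and without scaling the change was -0.02 (adjusted p = 0.922).

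**Figure D4:**
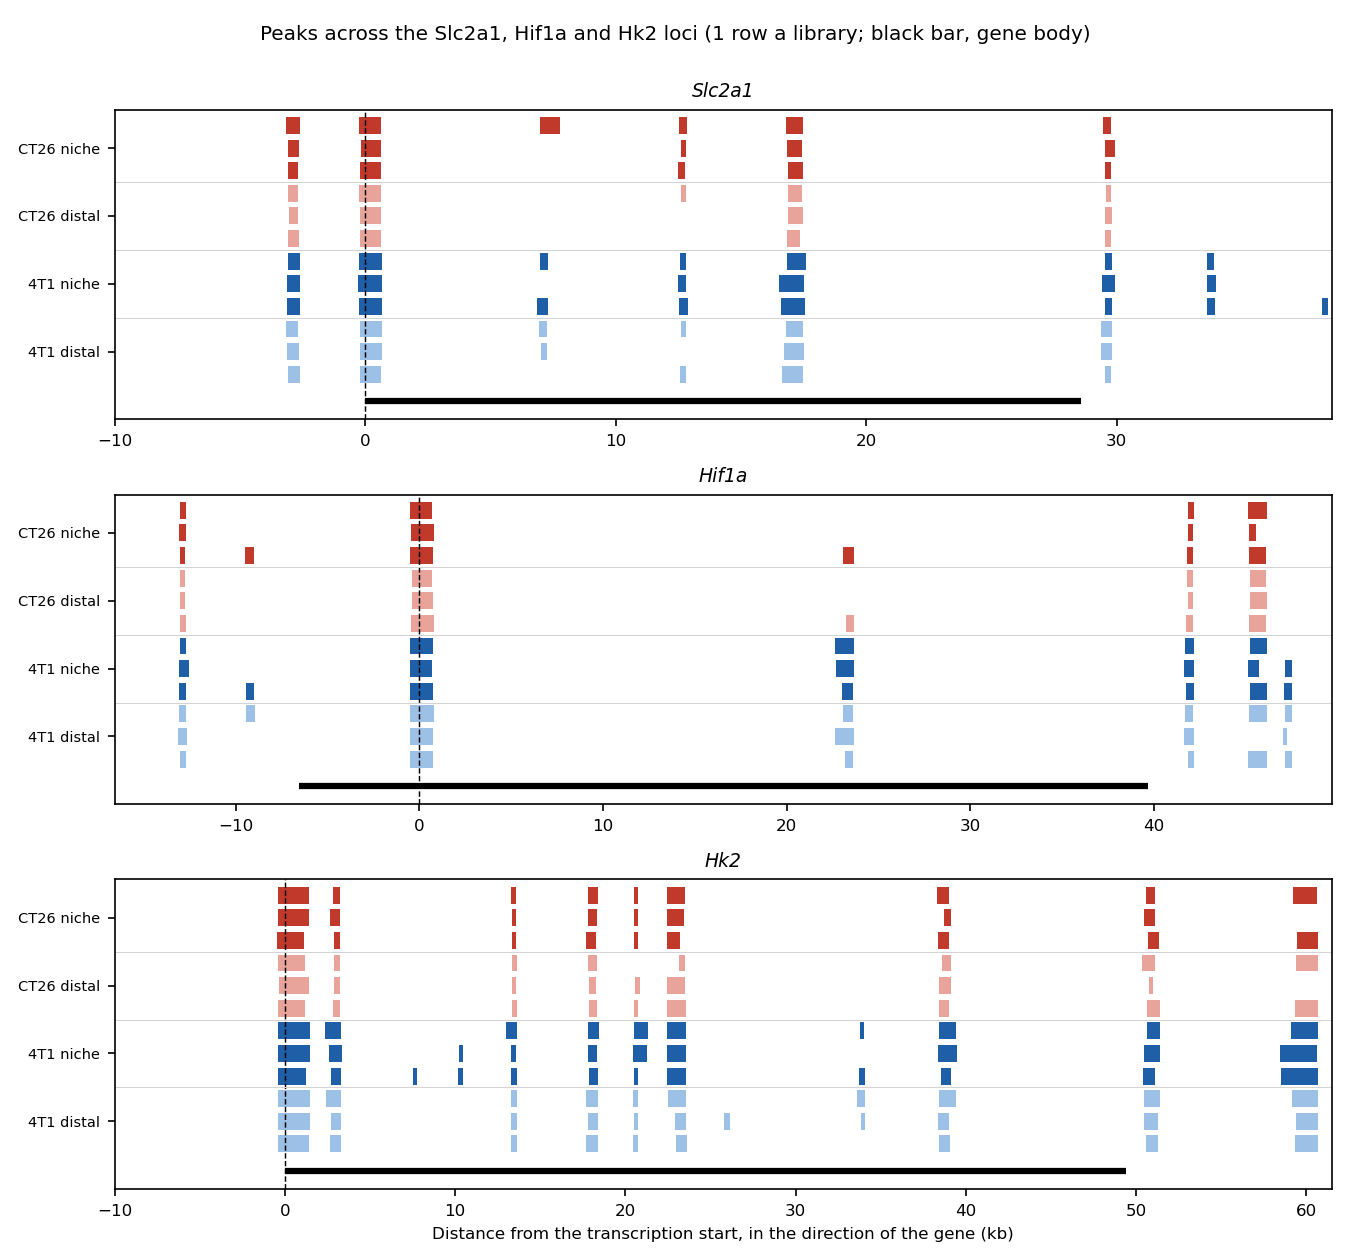
Deposited peaks across the Slc2a1, Hif1a and Hk2 loci, 1 row a library by group, against the distance from the transcription start in kb in the direction of the gene. The black bar is the gene body. The Slc2a1 peak at 33.8 kb is present in the 3 4T1 niche libraries alone, and the Hif1a peak at 47.3 kb is present in 5 of 6 4T1 libraries and no CT26 library.

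Hk2, the hexokinase that traps glucose in the cell, had the most open locus of the 10 genes in number of regions, 13 in all, and 8 of them were present in every library. It is also the longest gene of the 10, at 49.4 kb. The region farthest from its start, at 59.6 kb, reached only partly into the locus, and 2 CT26 libraries had their peak in it wholly outside. Its locus held 5882, 5462 and 5165 bp in CT26 niche libraries against 4401, 5040 and 5461 bp in CT26 distal libraries, not scaled. It held 8378, 8588 and 7582 bp in 4T1 niche libraries against 7850, 6326 and 5922 bp in 4T1 distal libraries. Niche and distal libraries overlapped in both models, and every CT26 library lay below every 4T1 library, as at 7.41% of all loci. The CT26 minus 4T1 change was -0.46 without scaling (limma, adjusted p = 0.00138), -0.28 scaled to the shared regions (adjusted p = 0.025), where 11.6% of all loci were called and 10.9% were called lower, and -0.12 scaled to total covered length (adjusted p = 0.233). It was lower in CT26 under all 3 scalings and called in 2 of them. Within the gene, a small region (chr6:82763996-82764291) was held by 2 of 3 4T1 niche libraries, with 201 and 280 bp, and by no other library. Another (chr6:82740384-82740850) was held by 2 of 3 4T1 niche and 2 of 3 4T1 distal libraries and by no CT26 library. Both were picked after their values were seen, and the share of all regions with such patterns was not counted.

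Gapdh, the enzyme of the oxidising step of glycolysis, was lower in niche cells after scaling, and its deposited lengths hardly differed. Its locus held a single region, over the start (chr6:125164275-125167093). This held 2648, 2390 and 2592 bp in CT26 niche libraries against 2494, 2452 and 2568 bp in CT26 distal libraries. It held 2651, 2618 and 2568 bp in 4T1 niche libraries against 2687, 2709 and 2595 bp in 4T1 distal libraries. These overlap in both models, and the longest and the shortest of all 12 differ by a factor of 1.13. Scaled, they were 2499, 2637 and 2850 bp in the CT26 niche against 3114, 3299 and 3146 bp in CT26 distal lung, and 2156, 2132 and 2208 bp in the 4T1 niche against 2522, 2502 and 2610 bp in 4T1 distal lung. The scaled niche change over both models was -0.21 ± 0.04 (limma, adjusted p = 0.0395), and without scaling it was -0.0029 (adjusted p = 0.957). Leaving out any library but CT26 niche replicate 3 also ended the call.

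For Pgk1, whose only region was the start region described above, the locus change within CT26 was 0.34 ± 0.16 scaled (limma, adjusted p = 0.263) and 0.52 ± 0.16 not scaled (adjusted p = 0.0599). Over both models it was 0.18 ± 0.11 scaled and 0.34 ± 0.12 not scaled (adjusted p = 0.329 and 0.0527). None of these passed.

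Ldha, the lactate dehydrogenase subunit that turns pyruvate into lactate, had 3 regions held by all libraries. The locus held 4513, 4385 and 4444 bp in CT26 niche libraries against 4364, 4113 and 3576 bp in CT26 distal libraries, with no overlap, as at 33.5% of all loci. It held 4676, 4760 and 4488 bp in 4T1 niche libraries against 4351, 4878 and 4722 bp in 4T1 distal libraries, with overlap, all not scaled. Scaled, the 4T1 niche libraries, at 3802, 3876 and 3858 bp, lay below the 4T1 distal libraries, at 4083, 4505 and 4748 bp, as at 19.5% of all loci. The scaled niche change over both models was -0.15 ± 0.06 (limma, adjusted p = 0.175) and the unscaled one 0.067 (adjusted p = 0.336), so that the direction turned with the scaling.

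Between the tumour models, the calls followed the scaling at most members. With scaling, 3 of the 10 loci were higher in CT26 than in 4T1, where 24.1% of all loci were called, 19.2% higher and 4.89% lower. These were Gapdh at 0.26 ± 0.04 (limma, adjusted p = 0.00916), Egln3 at 0.22 ± 0.06 (adjusted p = 0.0222) and Ldha at 0.21 ± 0.06 (adjusted p = 0.0349). The Gapdh call held whichever library was left out. The Egln3 call was lost without 4T1 niche replicate 2 (adjusted p = 0.0515) or 4T1 distal replicate 2 (adjusted p = 0.0558). The Ldha call held only without CT26 niche replicate 1, CT26 distal replicate 3 or 4T1 distal replicate 3, and was lost without any of the other 9. Without scaling, 5 of the 10 were lower in CT26, where 46.4% of all loci were called and 46.3% were called lower. These were Hk2, Vegfa, Hif1a at -0.43, Slc2a1 at -0.34 and Bnip3 at -0.16, with limma adjusted p of 0.00138, 0.00491, 0.00989, 0.0124 and 0.024. Of the calls over all loci, 79.7% were higher in CT26 with scaling and 0.269% without. Relative to the median of all loci, Egln3 lay at 0.15 scaled and 0.14 not scaled, and Gapdh at 0.18 scaled and 0.16 not scaled. Hk2 lay at -0.19 scaled and -0.25 not scaled, and Vegfa at -0.20 scaled and -0.25 not scaled. As said above, such values were bound to be close under both scales and do not support the calls. The tumour line cannot be told apart from anything else that differed between the CT26 and 4T1 samples, the longer 4T1 lists included.

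Region by region, 43 of the 48 regions had a peak in at least 3 libraries and were tested. Of the 48, 31 (64.6%) were held by all 12 libraries, beside 42.1% of all regions, a description with no test, and 10 of the 48 lay over the start of a member. For niche minus distal over both models, 7 regions were called, 6 lower and 1 higher, where 10.8% of all regions were called, 5.87% lower and 4.94% higher. The 6 lower ones were both Egln3 regions, the start regions of Gapdh, Ldha and Slc2a1, and the Bnip3 region 10 kb from the start, upstream (chr7:138919031-138920035). Their changes were -0.35 to -0.18 scaled and -0.14 to 0.04 not scaled, and none was called without scaling, when 6.33% of all regions were called. The higher one was the Slc2a1 region of the 4T1 niche, which had to differ, as said above. For CT26 minus 4T1, 13 regions were called, 10 higher and 3 lower, where 25.0% of all regions were called, 16.5% higher and 8.55% lower. The 10 higher ones were 7 start regions, the Egln3 region inside the gene, the upstream Bnip3 region and the Adm region 3.0 kb after the start (chr7:110630068-110631218). They had changes of 0.24 to 0.34 scaled and -0.11 to 0.01 not scaled, and none was called without scaling. The 3 lower ones were the Hif1a regions at 23.2 and 47.3 kb and the Slc2a1 region of the 4T1 niche. All 3 passed the filter only through 4T1 libraries, so their calls add nothing to their presence and absence. They were called without scaling too, when 12.5% of all regions were called and 12.4% were called lower.

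The other genes of the pathway were called between niche and distal cells about as often as all loci, of which 2.38% were called. An unadjusted limma p under 0.05 was reached in this comparison by 4167 of the 16823 loci. Of 8 genes of oxygen sensing and HIF subunits, all tested, none was called by limma over both models (1 at an unadjusted p under 0.05), with a median log2 change of 0.02 beside -0.04 over all loci. Of 29 other HIF target genes tested of 30 listed, 1 was called (8 at an unadjusted p under 0.05), with a median of 0.02. Of 24 other glycolysis genes tested of 25 listed, none was called (4 at an unadjusted p under 0.05), with a median of -0.06. The HIF target called was Nos2, the inducible nitric oxide synthase, which is also known as a gene of inflammation. Its locus held 573, 464 and 288 bp in CT26 niche libraries against no peak in CT26 distal libraries, and 1146, 1544 and 1785 bp in 4T1 niche libraries against 1085, 782 and 263 bp in 4T1 distal libraries. Not scaled, every niche library lay above every distal library of its model, as at 11.0% of all loci. Scaled, 4T1 niche replicate 1 fell below 4T1 distal replicate 1, so the 4T1 groups overlapped. Its change over both models was 0.77 ± 0.16 (limma, adjusted p = 0.0342) on a scale that depends on the 500 bp added, and 0.84 without scaling (adjusted p = 0.00887). The call was lost when any of 7 libraries was left out, namely CT26 niche replicates 1 and 2, CT26 distal replicate 2, 4T1 niche replicates 1, 2 and 3 or 4T1 distal replicate 2. Without scaling, 2 oxygen sensing genes (Egln1 and Epas1), 8 other HIF targets and 3 other glycolysis genes (Hk1, Pfkfb3 and Pfkfb4) were higher in the niche, in a comparison that called 23.7% of all loci.

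Between the models, the other genes again split with the scaling. With it, 1 oxygen sensing gene of 8, 5 other HIF targets of 29 and 7 other glycolysis genes of 24 were called, beside 24.1% of all loci. Lower in CT26 were Arnt2, a partner subunit of HIF, at -0.30 ± 0.09, the collagen prolyl hydroxylase gene P4ha1 at -0.34 ± 0.09 and Nos2 at -1.01 ± 0.16 (limma, adjusted p = 0.0415, 0.027 and 0.00828). These 3 were lower without scaling as well. Higher in CT26 were the HIF targets Ak4, Ankrd37 and Hmox1, at 0.18, 0.22 and 0.16, and the glycolysis genes Aldoa, Eno1, Eno2, Eno3, Hk3, Ldhb and Tpi1, at 0.16 to 0.24. All 10 of these turned to values from -0.17 to -0.08 without scaling, and Ak4, Eno1 and Hmox1 were then called lower.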

How the data were processed

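AT2 cells were profiled by Omni-ATAC-seq in 12 libraries. The authors deposited 1 broad peak list a library, made with MACS2 on GRCm38, with bedtools also named, per the submitters' processing notes. No source used here gives versions, the aligner or read filters. Each deposited peak has a start and end in bp, a fold enrichment over local background and −log10 p and q values, as deposited by the authors. The length of a list depends on the reads and the background of its library, and so do the lengths given here.

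Peaks on chromosomes 1 to 19 and X were kept. From them the bp under peaks were summed for each gene body with 10 kb on each side, and peaks of the 12 libraries were merged into regions. Each length was multiplied by the mean total covered length over that of its library. It was then transformed as log2(bp + 500) for loci and log2(bp + 100) for regions. Tests used limma 3.58.1 (eBayes with trend, R 4.3.3) on the 4 group means, which left 8 residual degrees of freedom. P-values were Benjamini-Hochberg adjusted over 16823 loci or 64948 regions with a peak in at least 3 libraries. The alternatives were other scalings, other added lengths, no filter, other flanks, a stricter −log10 q, equal list lengths, regions merged at a stricter overlap, the replicate number as a block and leaving out each library. The statistical script was tested on simulated data. Since no reads were used, no counting intervals are given. The 10 genes and the pathway lists were chosen with earlier results of these data known. Every member is described, and other genes or regions are named where they passed the threshold. Single regions are named where they lay over a start, were called, or were held by all libraries of 1 site or model and none of the other. The Slc2a1 region at chr4:119121241-119121623 and both single Hk2 regions were chosen after their values were seen. The 3 samples of a group are labelled as independent pools of 5 lungs. Some items are not reported here.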

Additional observations from a re-analysis of the deposited data

How the results depend on the processing

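Most calls depended on the scaling, and values here are log2 changes with limma unless they are counts. The cause of each difference was not tested. Without scaling, 2027 loci were called within CT26 (113 with scaling), 569 within 4T1 (105), 3981 for niche minus distal over both models (401), 7809 for CT26 minus 4T1 (4051) and 25 for the difference of the niche effect (10). Of the 10 genes, 1 was then called between sites (2 with scaling) and 5 between models (3). Of their regions, 0 were called within CT26 (1), 1 over both models (7) and 6 between models (13). Directions also turned without scaling. For niche minus distal these were Hk2 at 0.21, Ldha at 0.067, Bnip3 at 0.14, Hif1a at 0.081 and Vegfa at 0.16, and the Slc2a1 and Ldha start regions at 0.040 and 0.0081. For CT26 minus 4T1 these were Gapdh at -0.054, Ldha at -0.12, Adm at -0.23, Bnip3 at -0.16, Egln3 at -0.076 and Pgk1 at -0.080. The pathway genes that turned were Ak4 at -0.14, Eno1 at -0.15, Eno2 at -0.13, Tpi1 at -0.097, Ldhb at -0.13, Aldoa at -0.099, Ankrd37 at -0.083, Hmox1 at -0.17, Eno3 at -0.10 and Hk3 at -0.089. The start regions that turned were those of Hif1a at -0.053, Vegfa at -0.055, Slc2a1 at -0.068, Gapdh at -0.062, Hk2 at -0.11, Bnip3 at -0.068 and Ldha at -0.072. The Egln3 region inside the gene turned to -0.10 and the Bnip3 region upstream to -0.045.

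Scaled to the regions that all libraries held, 307 loci were called within CT26, 298 within 4T1, 859 over both models, 1944 between models and 19 for the difference of the niche effect. Of the 10 genes, 0 were called between sites and 1 between models, and of their regions 0 within CT26, 1 over both models and 3 between models. Hk2 turned to 0.087, Bnip3 to 0.029 and Vegfa to 0.044 between sites, and Adm to -0.062 and Bnip3 to -0.0035 between models. With peaks of a -log10 q of at least 5, the locus counts were 224 within CT26, 44 within 4T1, 192 over both models, 6383 between models and 81 for the difference. Then 0 of the 10 genes were called between sites, with 0 regions within 4T1 and 2 over both models. Between sites Adm turned to -0.096, Egln3 to 0.019 and its start region to 1.41, on a scale set by the 100 bp added. Between models Adm turned to -0.036, Hif1a to 0.061, Eno2 to -0.077, P4ha1 to 0.072 and Eno3 to -0.27. With 42067 peaks from each library, 45 loci were called within 4T1, 98 over both models and 94 between models. None of the 10 genes was called in either pooled comparison (0 and 0), and 0 of their regions in any of the 4 comparisons. Adm turned to -0.024 and Bnip3 to 0.033 between sites, and Adm to -0.065, Bnip3 to -0.018 and Hif1a to 0.037 between models. With 50 kb on each side, 309 loci were called within CT26, 171 within 4T1 and 721 over both models, with 0 of the 10 genes. Pgk1 turned to -0.090 within CT26 and -0.11 over both models, Bnip3 to 0.0064 over both, and Slc2a1 to 0.11, Hif1a to 0.033, Vegfa to 0.041 and Ankrd37 to -0.0007 between models. With 2 kb on each side, 17 loci were called for the difference and Slc2a1 turned to 0.024 between models. With 100 bp added, 62 loci were called within 4T1. With no filter on low values, 0 regions of the 10 genes were called within CT26 and 4 over both models.

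Leaving out each library in turn gave 37 to 117 loci within CT26, lowest without CT26 niche replicate 1, and 26 to 107 within 4T1, lowest without 4T1 niche replicate 2. It gave 90 to 358 over both models, lowest without 4T1 niche replicate 2, 2516 to 4300 between models and 0 to 18 for the difference. Of the 10 genes, 0 to 1 were called between sites and 1 to 4 between models. Of their regions, 0 to 2 were called within CT26, 0 to 2 within 4T1, 0 to 6 over both models and 8 to 14 between models. Hk2 between sites ran from -0.063 to 0.032 and Slc2a1 between models from -0.078 to 0.020.

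Deviations of samples with the same replicate number had correlations of -0.09 to 0.089 over 18 pairs, pairs between models included. Between niche and distal samples of a model they were 0.011, 0.018 and -0.044 in CT26 and 0.089, 0.037 and 0.029 in 4T1. Different numbers gave -0.093 to 0.092 in CT26 and -0.06 to 0.025 in 4T1. The numbers were not taken to pair the samples, and whether niche and distal samples were paired is unknown. With the replicate block, 62 loci were called within CT26, 214 over both models and 3 for the difference of the niche effect. The replicate block called 0 of the 10 genes between sites, with adjusted p of 0.0626 for Egln3 and 0.0592 for Gapdh, and 0 regions within CT26 and 4 over both models.

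The main limits are that peak lengths are not read counts, that depth is unknown, that each group has 3 samples, and that the lists differ in length along the same lines as the groups. Values at a locus can include peaks over a neighbouring gene.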
